A study of Mus musculus with 4 samples.

Results

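Open chromatin inside introns was compared between WT macrophages and macrophages labelled as H3.3 conditional knockouts (cKO). Intronic lost regions were selected on the peak calls themselves: the 4 ATAC-seq peak lists were merged wherever peaks shared 1 bp or more, and an autosomal region was kept if both WT lists and no cKO list held a peak in it. Its centre also had to lie in a gene body of the basic GENCODE M21 annotation of mm10, outside every exon and outside promoters, the stretch from 1 kb before to 100 bp after a transcription start site (TSS). This rule kept 2947 regions. They were 8.88% of the 33198 autosomal intronic regions, and lost regions of every class were 7.32% of the 69349 autosomal regions. Because the rule used the calls of both genotypes, the absence of a cKO peak is how the regions were chosen and not a result.

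The libraries came from bone marrow-derived macrophages (BMDMs), that is, macrophages grown from marrow in L929-conditioned medium for 6 to 8 days, and each group had 2 biological replicates. For the ATAC-seq cells the study's text gives day 7. The cKO cells were H3f3a fl/fl, H3f3b fl/fl with LysM-Cre, for which the study's methods give cre/cre and a legend cre/+. The WT cells carried the same floxed genes without Cre, so the presence of Cre and the loss of H3.3 cannot be told apart here. The study reports that LysM-Cre mice lacking floxed alleles gave normal BMDMs with no DNA damage. A legend gives fl/+ genes for that control. No such Cre control is among the 4 libraries. Mice were of C57BL/6 background, 8 to 10 weeks old and of both sexes. LysM-Cre sits in the Lyz2 gene and acts in myeloid cells while they differentiate, and the study describes deletion of H3f3b as variable between preparations.

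Introns hold many of the enhancers of a gene. In macrophages such elements are opened by PU.1 and C/EBP proteins, the lineage factors, and are then used by signal-dependent factors of the AP-1, IRF and NF-kB families. H3.3 is the H3 variant that is placed into chromatin throughout the cell cycle and not only during replication, at genes, enhancers and repeats. ATAC-seq reads such sites through the insertion of adapters by the Tn5 transposase.

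The windows below reach 100 bases to either side of the summit of the stronger WT peak, read from the plus strand of the RefSeq GRCm38 (mm10) assembly. The first pair are the regions that ranked highest in WT, and the others are the highest-ranked regions not yet shown with a match to a PU.1, C/EBP, AP-1, IRF or RUNX motif, in that order, so that each of these has an example of high rank. Capitals mark matches to these 5 motifs and to an NF-kB motif.
Dram1, chr10:88346043-88346243: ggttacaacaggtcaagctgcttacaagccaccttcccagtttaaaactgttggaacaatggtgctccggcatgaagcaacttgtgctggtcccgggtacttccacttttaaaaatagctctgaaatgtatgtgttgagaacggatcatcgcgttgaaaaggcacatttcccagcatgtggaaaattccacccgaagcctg
Pnrc1, chr4:33265308-33265508: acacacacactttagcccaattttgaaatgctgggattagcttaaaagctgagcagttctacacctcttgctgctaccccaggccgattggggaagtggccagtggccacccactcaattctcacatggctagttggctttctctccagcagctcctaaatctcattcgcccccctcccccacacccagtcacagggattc
Ephx1, chr1:181016636-181016836: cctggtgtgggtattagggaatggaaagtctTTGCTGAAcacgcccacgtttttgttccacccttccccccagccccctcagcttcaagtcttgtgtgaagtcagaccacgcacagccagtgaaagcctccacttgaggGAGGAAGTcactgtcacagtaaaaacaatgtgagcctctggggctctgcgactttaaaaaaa
A530013C23Rik, chr2:167715106-167715306: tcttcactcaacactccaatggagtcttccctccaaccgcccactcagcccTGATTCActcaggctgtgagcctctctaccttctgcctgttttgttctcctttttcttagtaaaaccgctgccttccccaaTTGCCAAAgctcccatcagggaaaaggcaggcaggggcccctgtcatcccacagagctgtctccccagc
Dock1, chr7:135110396-135110596: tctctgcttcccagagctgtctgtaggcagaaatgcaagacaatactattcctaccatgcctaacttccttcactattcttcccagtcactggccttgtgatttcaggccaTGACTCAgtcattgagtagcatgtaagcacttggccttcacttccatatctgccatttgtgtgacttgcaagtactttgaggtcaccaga
Itsn1, chr16:91740303-91740503: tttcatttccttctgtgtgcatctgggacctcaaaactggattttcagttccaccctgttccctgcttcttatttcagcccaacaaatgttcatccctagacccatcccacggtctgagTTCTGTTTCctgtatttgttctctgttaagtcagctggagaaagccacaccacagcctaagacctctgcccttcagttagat
Nisch, chr14:31195099-31195299: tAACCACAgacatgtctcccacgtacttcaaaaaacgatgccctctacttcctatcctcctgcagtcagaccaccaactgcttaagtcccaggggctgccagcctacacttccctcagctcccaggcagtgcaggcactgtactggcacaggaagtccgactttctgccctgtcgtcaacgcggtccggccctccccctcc

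The letters searched on both strands were GAGGAAGT for PU.1, TTGCNNAA for C/EBP, TGANTCA for AP-1, GAAANNGAA for IRF and AACCACA for RUNX, while NF-kB was searched by its 10-base consensus. The highest-ranked window, in intron 1 of Dram1, and the next one, in the Pnrc1 gene body, held none of the 6. The PU.1 match in the Ephx1 window was 43 bp from the summit and that window also held a C/EBP match 65 bp away on the other side. In the A530013C23Rik window an AP-1 and a C/EBP match lay 46 and 36 bp from the summit, on opposite sides. The AP-1 match of Dock1 was 14 bp and the IRF match of Itsn1 23 bp from the summit, whereas the RUNX match of Nisch lay at the window's edge, 96 bp away.

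Lost intronic regions were weak peaks in WT cells. Peak area is the area under the significance curve that the peak caller assigns, with a lower limit of 200, and was ranked within each list as a percentile. In WT replicate 1 the areas of the 2947 regions ran from 200 to 1212 with a median of 284, and in WT replicate 2 from 200 to 1482 with a median of 374. The median percentiles were 14.8 and 25.8. Only 71 regions in replicate 1 and 161 in replicate 2 stood above the median peak of their own list. The WT lists ranked the regions alike: across the 2947 regions Pearson's r of log2 area was 0.785 and Spearman's rho of percentile was 0.724. Both lists come from the same cell type and the same peak caller. Replicate 2, the longer list, gave the higher percentile in 2526 of them. The plot of percentiles by WT replicate shows this shift as a cloud above the diagonal.

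**Figure D1:**
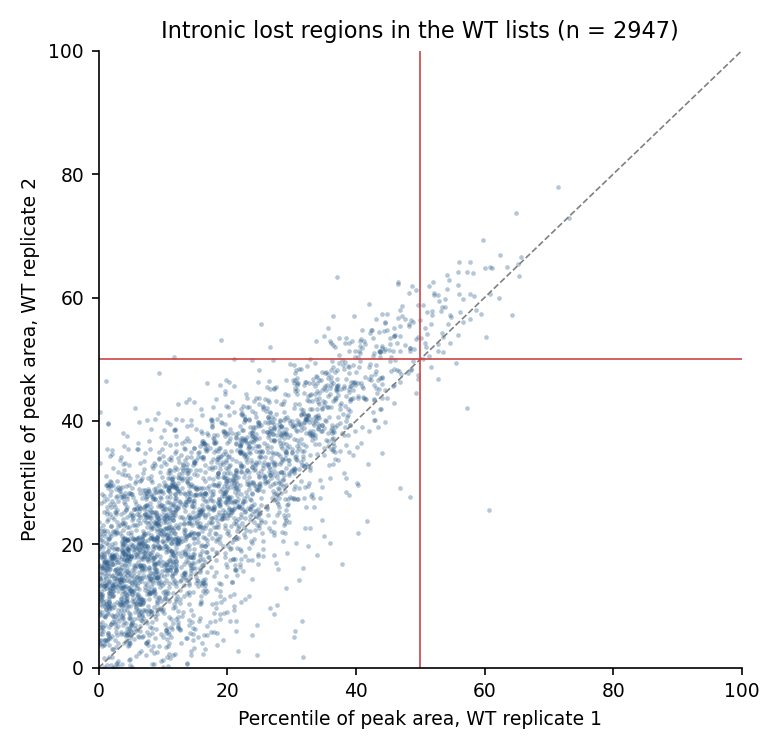
Each point is 1 of the 2947 intronic lost regions, placed by the percentile of its peak area in WT replicate 1 (x axis) and WT replicate 2 (y axis). Red lines mark the list medians and the dashed line equality; most points lie below both medians and above the diagonal.

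The share of intronic regions without a cKO peak fell with their strength in WT. Of 24620 intronic regions called in both WT lists, 2947 were lost, 2234 kept a peak in 1 cKO list and 19439 in both. Among regions with a mean WT percentile of 0 to 10, 490 of 991 were lost (49.4%). Between 30 and 40 the share was 14.4%, between 50 and 60 it was 2.79%, and between 70 and 80 only 2 of 2603 were lost (0.0768%). None was lost above a percentile of 80. A site needs an area of 200 to be listed, and the part of that limit in this order was not tested.

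**Figure D2:**
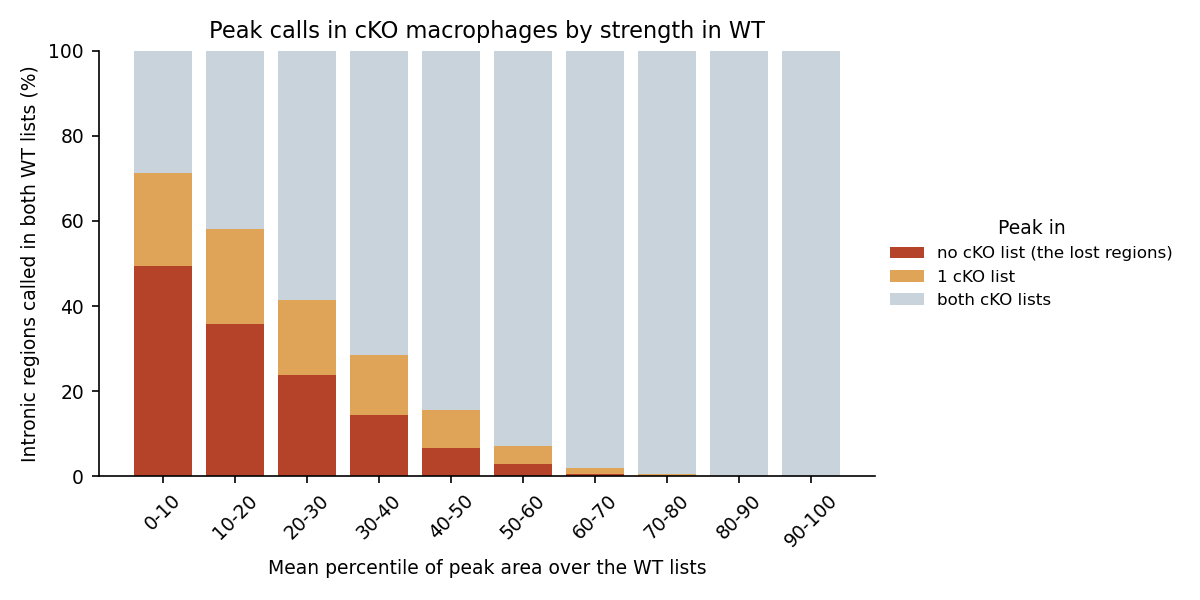
Bars give the percent of the 24620 intronic regions called in both WT lists that had a peak in no, 1 or both cKO lists, by mean percentile of peak area over the WT lists (x axis). The lost share runs from 49.4% in the weakest bin to 0 in the 2 strongest.

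At the edge of the rule, the lowest WT areas just inside were 200, and the 2234 regions just outside had a median area of 262 in their single cKO list, with 71.1% of these areas under 300. In 2089 of the 2234 the remaining cKO peak was in replicate 2, whose list was the longer of the 2. The 5 lost regions of lowest WT rank lay in Gucd1, Vdac2, Vill, Rnf145 and Grin3b, with mean percentiles of 0.441 to 1.22. A further 2865 intronic regions had a peak in 1 WT list and no cKO list.

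The lost regions were shorter than shared ones and lay at similar distances from a TSS. Their median width was 316 bp, against 537 bp for the 19439 intronic regions called in all 4 libraries (shared regions) and 311 bp for the 1263 intronic regions called in both cKO lists and no WT list (gained regions). The median distance to a TSS was 12.2 kb, against 10.6 kb for shared and 13.2 kb for gained regions. A first intron held 1051 of the 2867 lost regions that could be placed in an intron of a basic transcript (36.7%), and the share was 41.5% of shared and 34.4% of gained regions. Each autosome lost between 9.76% and 16.3% of the intronic regions called in both WT lists, with chromosome 10 lowest and chromosome 17 highest. The nearest cKO peak summit was a median of 5.63 kb away, and 226 regions (7.67%) had one within 1 kb. Of the lost regions, 435 had another of the 2947 within 10 kb, and 71 had 1 of the 1263 gained regions there.

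Base composition was near that of other intronic regions. The median GC content within 100 bp of the summit was 47.3%, against 48.3% in shared and 46.8% in gained regions. In bins of 25 bp, the mean GC content of lost regions was 48.6% to 49.2% within 50 bp of the summit and 45.5% and 45.6% in the next bins out. CpG-rich windows, with an observed to expected CpG ratio above 0.6, made up 2.58% of lost, 7.97% of shared and 1.98% of gained regions. H3.3 is also known for its place at repeats. Repeat-masked sequence covered a median of 9.89% of a lost region and 10.8% of a shared or a gained one. More than 50% of the sequence was masked in 4.78% of lost regions, 3.41% of shared, 9.26% of gained and 8.16% of intergenic lost regions.

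The PU.1 motif had like shares in lost and shared regions, the C/EBP motif a slightly larger share in lost regions and the AP-1 motif a smaller one. GAGGAAGT, the PU.1 motif, occurred within 100 bp of the summit in 385 lost regions (13.1%), in 13.2% of shared and in 9.18% of gained regions, and in 1.51% of windows 1 kb away from the lost summits. The share over all 33198 intronic regions was 12.4%. TTGCNNAA, the C/EBP motif, was found in 14.4% of lost, 13.2% of shared and 12.3% of gained regions, with 7.80% in the flanks of the lost regions and 13.0% over all intronic regions. Within 50 bp of the summit its shares were 7.57%, 6.50% and 5.07%. TGANTCA, the AP-1 motif, was found in 315 lost regions (10.7%), in 21.0% of shared and in 28.6% of gained regions, with 5.99% in the flanks and 19.1% over all intronic regions. No test was made of these shares, because regions of 1 set of libraries are not replicates.

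**Figure D3:**
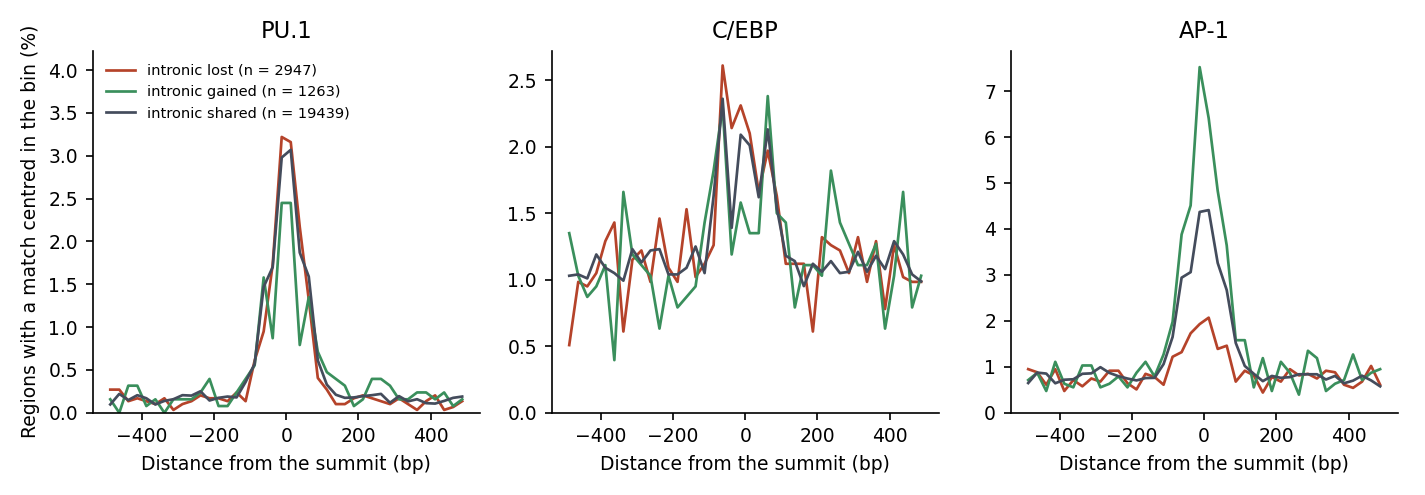
Percent of intronic regions with a motif match centred in each bin of 25 bp (y axis), by distance from the summit (x axis), for PU.1, C/EBP and AP-1 in lost, gained and shared regions. All 3 sets peak at the summit for PU.1 and AP-1, and the AP-1 peak is lowest in the lost and highest in the gained regions.

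RUNX and CTCF matches had smaller shares in lost than in shared regions. RUNX matches were found in 6.89% of lost, 9.92% of shared and 12.7% of gained regions. The CTCF consensus of 12 bases, the motif of the insulator protein, was found in 1.46%, 3.40% and 5.23%. NF-kB matches went the other way, with 7.36% of lost, 4.48% of shared and 2.53% of gained regions, and with 2.75% in the flanks of lost regions. IRF matches were found in 11.2%, 9.96% and 8.95%. GGAANNGAA, the composite PU.1-IRF element, was found in 14.3%, 12.7% and 8.95%, and its letters can overlap those of the IRF and PU.1 motifs. GGGCGGG, the SP/KLF box of promoters, was found in 2.07% of lost and 5.60% of shared regions. STAT (TTCNNNGAA) matches were in 7.19% of lost and 6.39% of shared regions, E-box (CACGTG) matches in 3.22% and 4.52%, and MAF (TGCTGAC) matches in 5.33% and 6.56%.

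Since lost regions were weaker than shared ones, the motif shares were also set side by side within ranges of WT percentile. The ranges match WT percentile only. Throughout, the window of a region with cKO peaks sat on its highest-ranked peak in any list, which could be a cKO one. Median widths of lost regions and those with peaks in both cKO lists were 272 and 316 bp between 0 and 20. They were 343 and 380 bp between 20 and 40, and 441 and 469 bp between 40 and 60. Between 0 and 20, AP-1 matches were found in 11.8% of 1487 lost regions and 23.0% of 1446 regions with peaks in both cKO lists. Between 20 and 40 the AP-1 shares were 9.98% of 1162 and 20.9% of 3919, and between 40 and 60 they were 7.55% of 278 and 20.4% of 5125. The lower AP-1 share of lost regions therefore appeared at each of these 3 levels of WT strength. NF-kB shares were 5.51% and 1.94%, then 8.61% and 3.93%, then 12.2% and 3.77%. C/EBP shares were 13.4% and 9.82%, then 14.6% and 12.5%, then 18.7% and 13.5%, so the lost regions had the larger share in each range. For PU.1, the lost regions had the larger share between 0 and 20 (12.7% and 8.16%) and between 20 and 40 (14.6% and 12%), and the smaller one between 40 and 60 (8.99% and 14.1%). CTCF matches were found in 2.49% and 10.4% in the lowest range, and in none of the 278 lost regions between 40 and 60.

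The lost regions also differed among themselves by strength. From the weakest 737 to the strongest 737 of the 2947 regions, the share with an NF-kB match went from 5.43% to 9.63% and that with a C/EBP match from 12.9% to 17.0%. AP-1 matches went from 13.6% to 7.46%, and CTCF matches from 3.26% to 0. PU.1 matches were at 12.6% in both. In all, 1424 lost regions (48.3%) held none of the 6 motifs marked above and 311 (10.6%) held more than 1 of them. PU.1 and C/EBP matches occurred together in 47 regions, and C/EBP and AP-1 matches in 41.

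The strongest lost regions lay in genes of several functions. Dram1 encodes a lysosomal membrane protein of autophagy and a target of p53. Its region, 935 bp in intron 1, had areas of 1149 and 1482 in WT replicates 1 and 2, or percentiles of 71.4 and 78.0. Pnrc1, a nuclear receptor coactivator, held the next, with areas of 1212 and 1266 and percentiles of 73.2 and 72.9. The Pnrc1 region could not be placed in an intron of a basic transcript. The region in intron 1 of Itsn1, an endocytic scaffold, had areas of 963 and 1298. It lay in the body of the overlapping gene Atp5o as well. In the kinase gene Hipk2 the areas were 980 and 1054, and in the non-coding gene A530013C23Rik 900 and 1065. Both replicates thus placed all 5 well above their list medians, and no cKO list had a peak there.

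Further down this order were Adam19, a membrane metalloprotease (974 and 969), and Fshr, the receptor for follicle-stimulating hormone (927 and 1008). The Fshr region was 94.7% repeat-masked, whereas the other regions among the 12 strongest had at most 22.7% masked. Gm37168 followed with areas of 869 and 1004, Rin3, which acts on Rab5, with 864 and 1005, the adhesion protein gene Tns1 with 847 and 1004, Irf8 with 800 and 1030 and the mitochondrial Suclg2 with 809 and 983. Of these 12 regions, 5 were in a first intron. The nearest cKO summit was 1.00 kb away at Rin3 and 117 kb away at Suclg2.

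The 2947 regions had 2159 primary host genes, of which 1941 were protein-coding, and 1644 hosts held a single lost region. Another 360 hosts held 2, 155 held at least 3, and 26 held at least 5. Taken per region, the median host length was 87.5 kb for lost and for all intronic regions, 86.5 kb for shared and 102 kb for gained ones. The largest counts belonged to very long gene models. Counting every gene body over a region, Gm20388, a 4435-kb model on chromosome 8 that runs over other genes, Irf8 among them, held 28 of 196 intronic regions. Fgfr2 held 13 of 97 in a 2961-kb model that also runs over other genes, Plekha1 and Fam53b among them. The cAMP phosphodiesterase gene Pde4d held 9 of 67 in 1504 kb. The share of Gm20388 was 14.3%. Shares of these long models were nearer to the 8.88% of all intronic regions than those of the other genes with most lost regions. These others were Gna12, Prkacb, Tgfbr2, Cacnb4, Slc9a9, Thada and Dtd1. They were named for their counts, so a high share in a shorter gene is partly fixed by that choice.

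Gna12 encodes a G protein alpha subunit. It is 72.0 kb long and lost 6 of its 11 intronic regions, and the other 5 were called in all 4 libraries. The 3 strongest lost regions, all in intron 1, had areas of 632 and 704, 575 and 764, and 471 and 728 in WT replicates 1 and 2. The other 3 stayed between 208 and 306. Among the shared regions, the one at chr5:140794967-140795545 had quantile-normalised log2 areas of 9.65 and 9.74 in WT and 8.44 and 8.72 in cKO cells. It fell by 1.12 ± 0.12 (SE) on the log2 scale (limma, adjusted p = 0.00644). Another, 0.546 kb from a lost region, had log2 areas of 10.12 and 10.21 in WT and 8.24 and 8.84 in cKO cells, and fell by 1.62 ± 0.21 (limma, adjusted p = 0.00908). The shared Gna12 regions without a call differed by 0.38, 0.10 and -0.17. Thus 2 of 5 were lower and 0 higher, beside 16.7% and 16.8% of all regions tested.

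Prkacb, a catalytic subunit of protein kinase A, lost 7 of 14 intronic regions, all weak, with areas from 207 to 315 in replicate 1 and from 230 to 521 in replicate 2. Tgfbr2, the type II receptor that binds TGF-beta, lost 6 of 18 over 36.3 kb. Its strongest lost region, in intron 1, had areas of 815 and 889, and the next, in intron 2, had 606 and 946. Of 8 shared regions at Tgfbr2, 5 were lower in cKO cells by limma and none was higher. Over all regions tested 16.7% were lower and 16.8% higher, and in host gene bodies 22.9% and 13.1%. The one of smallest adjusted p, chr9:116101226-116102329, had log2 areas of 10.86 and 11.02 in WT and 9.85 and 9.82 in cKO cells, and fell by 1.11 ± 0.09 (limma, adjusted p = 0.00504). Cacnb4, a calcium channel beta subunit, lost 7 of 17, with areas of 790 and 985 at the strongest. A shared Cacnb4 region 0.708 kb from a lost one had log2 areas of 11.13 and 11.07 in WT and 10.26 and 10.20 in cKO cells, and fell by 0.87 ± 0.08 (limma, adjusted p = 0.00514). Another Cacnb4 region rose by 0.44 (limma, adjusted p = 0.0222). The endosomal sodium-proton exchanger gene Slc9a9 lost 7 of 24, Thada 7 of 20, and Dtd1, a D-aminoacyl-tRNA deacylase gene, 6 of 15.

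**Figure D4:**
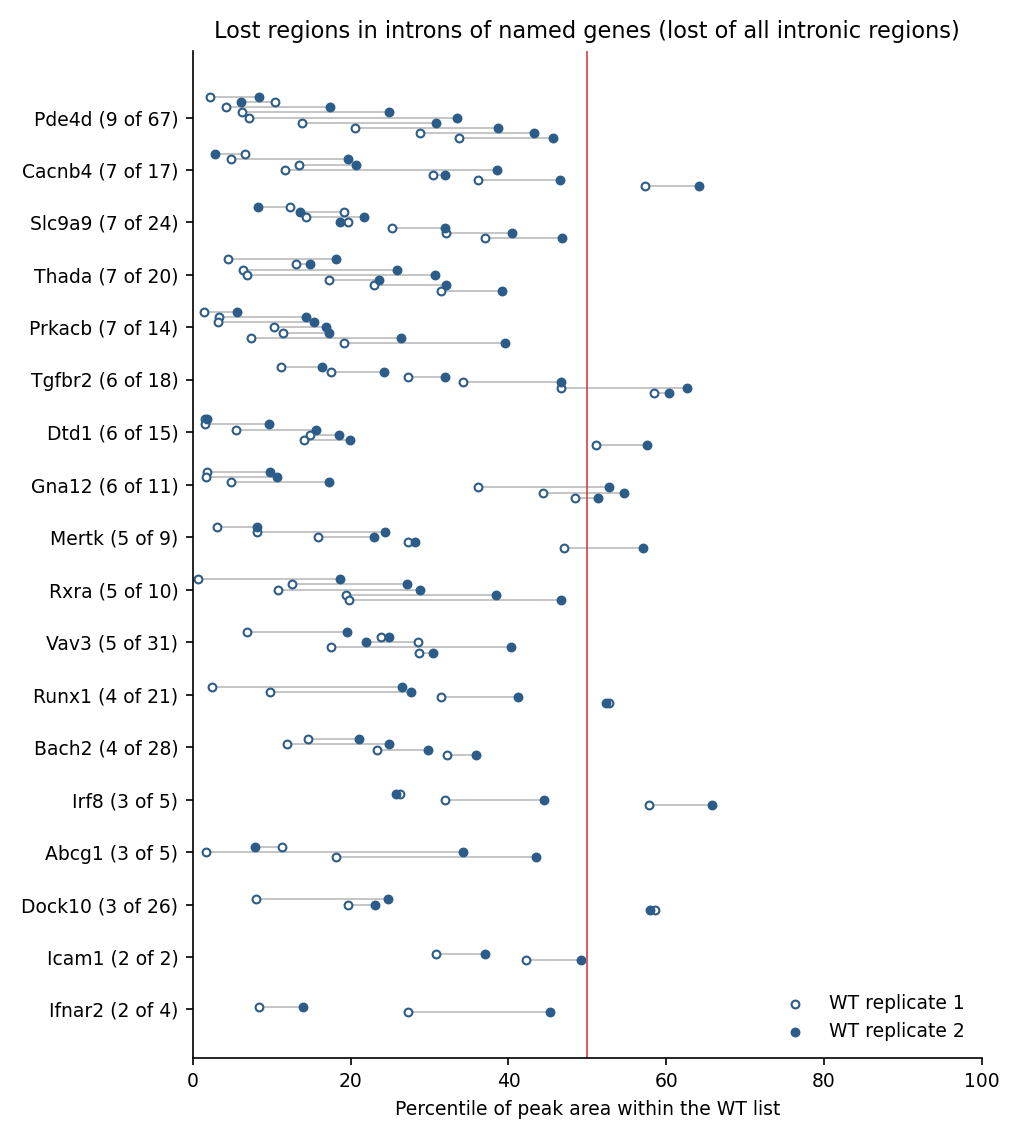
Percentile of peak area (x axis) of each lost region in 18 genes, with open points for WT replicate 1, filled points for WT replicate 2 and a line joining the pair. Numbers in brackets give lost regions of all intronic regions in the gene; most points lie left of the list median (red line).

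Regulators of myeloid identity were among the hosts. Of 284 intronic regions in 38 genes of the list of myeloid transcription factors, 37 (13.0%) were lost, beside 8.88% over all introns, and 16 of the 38 genes held at least 1, beside 2290 of all 10720 genes (21.4%). Of 242 shared regions tested in the list, 46 were lower and 31 higher in cKO cells, with a median log2 difference of 0.00, beside 16.7% lower and 16.8% higher over all regions tested. Irf8, which directs monocyte and dendritic cell development, lost 3 of 5 within 5.03 kb. Its regions had areas of 800 and 1030 in intron 3, and 427 and 591 and 372 and 374 in intron 2. Both shared regions of Irf8 were lower in cKO cells. At an exonic one, chr8:120743401-120744228, 1.04 kb from a lost region, log2 areas were 10.72 and 10.80 in WT and 10.10 and 10.06 in cKO cells, and it fell by 0.68 ± 0.08 (limma, adjusted p = 0.007). Runx1, a factor of blood development, lost 4 of 21, with areas of 705 and 721 at the strongest. The Runx1 shared region at chr16:92786870-92787501 had log2 areas of 10.51 and 10.62 in WT and 9.46 and 9.36 in cKO cells, and fell by 1.15 ± 0.09 (limma, adjusted p = 0.0048). Another Runx1 region rose by 0.32 (limma, adjusted p = 0.0395). The repressor gene Bach2 lost 4 of 28. Spi1, which encodes PU.1, lost 1 of 8, with areas of 213 and 296. That region lay in the gene body but could not be placed in an intron of a basic Spi1 transcript. Pparg and Etv6 lost 4 each, of 8 and 32.

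Lipid and sterol metabolism had the largest share of the 10 gene lists, with 22 of 133 intronic regions lost (16.5%, beside 8.88% of all introns) and 1 gained. Of the 116 shared regions tested in these genes, 28 were lower and 15 higher in cKO cells, beside 16.7% and 16.8% of all regions tested. Rxra, the retinoid X receptor that pairs with the LXR and PPAR receptors, lost 5 of 10, all in intron 1. Their areas ran from 203 to 320 in replicate 1 and from 317 to 622 in replicate 2, so replicate 2 was higher at each. All 3 shared regions of Rxra were lower in cKO cells, and the one of smallest adjusted p fell by 0.86 ± 0.13 (limma, adjusted p = 0.0124), from log2 areas of 9.09 and 9.0 in WT to 8.02 and 8.35 in cKO cells. Without either WT replicate that region did not pass. Abcg1, a cholesterol exporter, lost 3 of 5, with areas of 308 and 575 at the strongest. Its shared intronic region had log2 areas of 9.08 and 9.19 in WT and 8.67 and 8.61 in cKO cells and fell by 0.49 ± 0.08 (limma, adjusted p = 0.0152), a call that also went without either WT replicate. Scap, the escort of SREBP, lost 1 of 3 (610 and 619), and Lpin1, a phosphatidate phosphatase, 1 of 7 (311 and 424). A shared Lpin1 region 8.60 kb from it had log2 areas of 10.09 and 10.25 in WT and 8.46 and 8.09 in cKO cells, and fell by 1.90 ± 0.15 (limma, adjusted p = 0.00497). Another Lpin1 region rose by 0.83 ± 0.08 (limma, adjusted p = 0.00589).

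Phagocyte receptors and cytoskeletal genes were close to the share of all introns. Of 98 intronic regions in receptor genes, 9 were lost (9.18%), and 5 of the 9 were in Mertk, the receptor for uptake of apoptotic cells. Mertk lost 5 of 9, and the strongest, in intron 1, had areas of 613 and 813. Its shared region of smallest adjusted p had log2 areas of 10.2 and 10.25 in WT and 9.87 and 9.81 in cKO cells and fell by 0.39 ± 0.08 (limma, adjusted p = 0.0217), and did not pass without WT replicate 1 or 2 or cKO replicate 2. The scavenger receptor gene Cd36 lost 2 of 11, and of its 11 shared regions 2 were higher and 0 lower in cKO cells by limma. Over all regions tested, 16.8% were higher and 16.7% lower. In the list of actin cytoskeleton genes, 34 of 405 were lost (8.40%, beside 8.88%) in 19 of 36 genes, against 21.4% of all genes. Among these, Vav3, a guanine nucleotide exchange factor, lost 5 of 31 and gained 5, Dock10 lost 3 of 26 and gained 4, and Dock1, which acts in engulfment, lost 2 of 12. The strongest lost region of Dock10 had areas of 818 and 836, while 7 of its 20 shared regions were higher in cKO cells and 1 was lower. At the Dock10 shared region of smallest adjusted p, log2 areas rose from 9.28 and 9.18 to 10.28 and 10.19, by 1.01 ± 0.08 (limma, adjusted p = 0.00504).

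Adhesion, cytokine signalling and lysosome genes lost 16 of 176 (9.09%), 24 of 257 (9.34%) and 9 of 102 (8.82%) intronic regions, all near the 8.88% of all introns. Icam1, the ligand of beta-2 integrins, had 2 intronic regions and lost both, with areas of 545 and 665 in intron 2 and 414 and 489 in intron 1. Each held an NF-kB match. Itgb5 lost 2 of 16. Ifnar2, a chain of the type I interferon receptor, lost 2 of 4, the stronger with areas of 382 and 603. Il10ra lost both of its 2. Hexa, a lysosomal hexosaminidase subunit gene, lost 2 of 5, and Atp6v1a, of the proton pump, 1 of 8.

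Interferon-stimulated genes had the smallest lost share of the 10 lists. Of their 117 intronic regions, 4 were lost (3.42%, beside 8.88% of all introns) and 24 were gained, beside 1263 of all 33198. Of 91 shared regions tested in them 11 were lower and 32 higher in cKO cells, beside 16.7% and 16.8% of all regions tested. The 4 lost regions were in Usp18, a negative regulator of interferon signalling (369 and 422), the DNA sensor gene Ifi204 (288 and 464), Oas1a and Epsti1. Cell cycle and replication genes lost 7 of 108 (6.48%, beside the same 8.88%), with 2 in Rad51b and the strongest in Rbl1 (420 and 651). Genes of H3.3 deposition and H3K36 methylation lost 3 of 31 (9.68%, near that background), in Nsd1, a methyltransferase (382 and 533), Ubn2 of the HIRA complex (432 and 408) and Chd1. Among other genes that the study discusses, Adgre1 (5 intronic regions), Itgam (4), Mki67 (2), Bcl2l11 (2), Sptssa (2), Cdkn1a (1) and Col1a1 (1) lost none, and Tk1, Impdh1 and Rac3 had no intronic region.

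Shared regions around the lost ones were lower in cKO cells more often than shared regions elsewhere. Areas of the 43706 autosomal regions called in all 4 libraries were compared by limma, and 7284 (16.7%) were lower and 7332 (16.8%) higher in cKO cells at an adjusted p below 0.05. Within 25 kb of a lost intronic region, 1500 of 6420 were lower (23.4%) and 702 higher (10.9%), with a median log2 difference of -0.08 against 0.01 over all regions tested. Within 2 kb the shares were 29.8% and 8.69%. Beyond 250 kb, 2271 of 16963 were lower and 21.4% higher. The same 4 libraries chose the lost regions, so this gradient describes the data and is not independent of the rule.

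**Figure D5:**
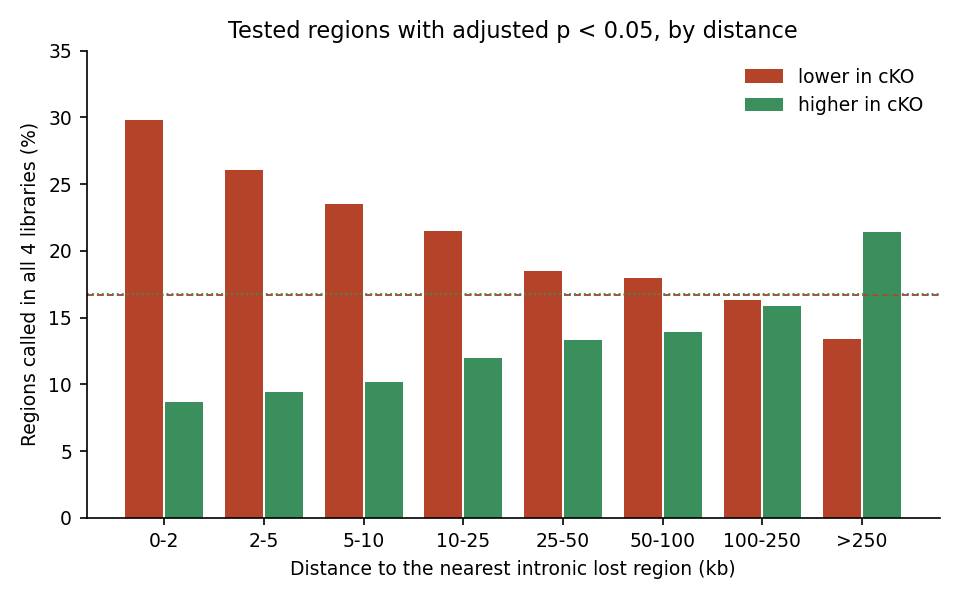
Percent of regions called in all 4 libraries that were lower or higher in cKO cells by limma (adjusted p below 0.05), by distance to the nearest intronic lost region. Dashed and dotted lines give the shares over all 43706 regions, 16.7% and 16.8%; the lower share falls and the higher share rises with distance.

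The pattern was there in introns and at promoters of the host genes. Among intronic shared regions, 27.2% of the 4044 within 25 kb of a lost region were lower, against 19.5% of all 19439. Of 1079 shared promoter regions in host genes, 145 were lower and 80 higher (7.41%), while over all 8797 promoter regions 790 were lower (8.98%) and 11.1% were higher. By limma no call passed when logit percentiles replaced areas, although 6431 and 3471 regions had an unadjusted p below 0.05 in that fit. The counts were 1688 lower and 2061 higher without WT replicate 1 and 2014 and 2447 without WT replicate 2. Near lost regions, 5.81% and 6.70% were then lower, beside 3.86% and 4.61% of all regions.

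Across the series, lists held 51955 to 64939 peaks. Read depth was not analysed here and is unknown. The H3f3a region over its floxed exon had a peak in both WT lists, weak at percentiles of 5.02 and 19.1, and in no cKO list. The H3f3a promoter and 2 H3f3b regions had one in all 4. The percentile of the intronic H3f3b region was 94.2 and 95.5 in WT lists, beside 87.0 and 81.4 for cKO. At the H3f3b promoter the WT percentiles were 23.7 and 34.3, while cKO lists had 28.7 and 42.5. The study floxed H3f3b too, so the peaks there do not show its deletion in the libraries labelled cKO. Promoters of 9 of 10 macrophage markers had a peak in every library. The promoter window of the 1 Spi1 transcript searched held none. A region in the Spi1 gene body, chr2:91081870-91085051, had a peak in all 4 libraries. Its percentiles were 99.5 and 99.6 in WT lists and 99.2 and 99.3 in cKO lists. No T cell or fibroblast marker promoter had a peak (0 of 3 each). Promoters of Ms4a1 (1 of 3 B cell markers) and S100a8 (1 of 4 neutrophil markers) had one in all 4 libraries, and that of Ly6g in both cKO libraries only. The part of other cells in the lost regions was not tested.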

How the data were processed

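ATAC-seq was done on BMDMs of 2 WT and 2 cKO replicates, grouped by sample title, from 50000 cells per library. The authors aligned reads to mm10 with Bowtie2 2.5.1 and called peaks per library with Genrich at default settings. Filters, duplicate removal and the Tn5 shift are not given in the sources used here. The main value was the deposited signal of each peak, its area of significance, which the authors did not scale between libraries. The deposited summit -log10 p-value and a deposited score, which is area per length with a ceiling, served only to describe the lists. Without reads, depth is unknown and the authors' read-count test could not be rerun.

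Peaks were merged and classified in Python 3.11.15 (pandas 2.3.3) by the centre of each region. A host gene is any gene body over the centre, and the primary host the shortest protein-coding one. Sequence came from RefSeq GRCm38 (pysam 0.24.0). Regions called in all 4 libraries were fitted with limma 3.58.1 (R 4.3.3) on quantile-normalised log2 summed areas, two-sided, with Benjamini-Hochberg adjustment over 43706 regions, after the script was tested on simulated data. A single value could not reach an exact permutation p below 0.333. The text names the 12 strongest and 5 weakest lost regions, the 10 genes with most of them, the leading genes of 10 gene lists and genes that the study discusses. Regions on 1 chromosome were counted but not named. A few further items are not reported here. The shared region given for a gene is the one of smallest adjusted p, chosen after values were seen, as were a second region in Gna12, Lpin1, Cacnb4 and Runx1, Pparg, Etv6, Il10ra, Oas1a, Epsti1 and Chd1. Regions, lists and tests were chosen with earlier results of these data known. Alternatives were peak area, list length, overlap, merging, annotation, promoter width, motif window, normalisation, filter, replicate block and leaving out each replicate.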

Additional observations from a re-analysis of the deposited data

How the results depend on the processing

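The number of intronic lost regions was 2947. It was 1346 with peaks of at least the median area of their list, and between 3093 and 5679 when 1 replicate was left out, with 5679 without WT replicate 1 and 5049 without cKO replicate 2. The 6 other named settings gave 2524 to 3355, among them 2749 with the comprehensive annotation, which was added after the data were seen. The share of lost regions with an AP-1 match stayed between 9.94% and 12.2% in every setting that kept the 100-bp window, and was 6.48% within 50 bp. Within 50 bp the C/EBP share was 7.57% in place of 14.4% and the PU.1 share 9.70% in place of 13.1%.

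Of the regions called in all 4 libraries, 7284 were lower and 7332 higher in cKO cells. With the logit of percentiles in place of areas, 0 were lower and 0 higher by limma, although 6431 and 3471 had an unadjusted p below 0.05. Leaving out 1 replicate gave 1688 to 6532 lower and 2061 to 5881 higher. Median centring gave 6463 and 9743, with the median log2 difference at 0.10 in place of 0.01.

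Near lost regions, 23.4% were lower and 10.9% higher. The shares were 20.5% and 14.4% with median centring, 0 and 0 with logit percentiles, 21.7% lower with the strongest peak, 27.4% and 12.8% of the 4928 near regions left when the weakest of all regions were dropped, 5.81% to 20.7% and 2.65% to 8.40% without 1 replicate, 20.2% and 12.6% within 100 kb, and 13.1% higher in host gene bodies. The lower share was above and the higher share below that of all regions tested in 11 of 12 settings each, the exception being logit percentiles. With the replicate number as a block, 6504 were lower and 6618 higher, and the shares near lost regions were 21.4% and 9.61%. Replicate differences of the 2 genotypes correlated at 0.12 over regions. With 2 pairs, this does not show that equal numbers pair the samples.

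The shared regions of smallest adjusted p in 10 genes all lost their call with logit percentiles. Otherwise 7 of them held in 8 of 8 settings. Those of Mertk, Rxra and Abcg1 did not pass without WT replicate 1 or without WT replicate 2, and that of Mertk also not without cKO replicate 2. The further regions of Gna12, Lpin1, Cacnb4 and Runx1 were not run under other settings.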
